A study of Mus musculus with 5 samples.

Results

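The beta cells of pregnant mouse islets were described here from single-cell libraries of dissociated pancreatic islets. The cells were chosen by their measured hormone transcripts. A cell was taken as a beta cell when Ins1 and Ins2, the pair of insulin genes of the mouse, together held at least 20% of its transcripts and Gcg, Sst and Ppy, the hormone genes of alpha, delta and gamma cells, together held under 1%. This rule kept 646 of the 2157 cells of pregnant islets, among 4687 cells in the whole series. Of these, 577 were among the 1993 cells of the library pregnant 1 (29.0%, 95% exact interval 27.0 to 31.0) and 69 among the 164 cells of pregnant 2 (42.1%, 34.4 to 50). The same rule kept 349 cells of postpartum 1, 655 of postpartum 2 and 274 of the non-pregnant library.

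The study set islets of pregnant and postpartum mice beside those of non-pregnant females. All animals were C57BL/6 mice, with no transgene or drug in the labels. There were 2 libraries of pregnant, 2 of postpartum and 1 of non-pregnant mice, made by inDrop, which encloses viable cells in droplets and tags each polyadenylated RNA molecule with a unique molecular identifier (UMI). The sources used here do not state the day of gestation, the time after birth, the age or how many animals gave each library. The p-values below therefore cannot be read as spread between animals, and any spread between libraries may be technical.

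Beta cells secrete insulin, which they store with islet amyloid polypeptide and granins in dense granules after prohormone convertases have cut the precursors. In pregnancy of the mouse, placental lactogen and prolactin act on beta cells through the prolactin receptor and the STAT5 proteins, and beta cells are known to divide more, to lower their glucose threshold and to make serotonin. After birth the beta cell mass is known to decline again.

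Depth set apart the 2 pregnant libraries, which are therefore given separately. Beta cells of pregnant 1 held a median of 611 UMIs (263 to 3030) and 180374 UMIs outside the hormone genes, from 6609 detected features. Beta cells of pregnant 2 held a median of 87 UMIs (68 to 253) and 3195 non-hormone UMIs, from 486 features, and in 1 of its cells a single non-hormone UMI was left. Medians were 249, 615 and 2898.5 UMIs in beta cells of postpartum 1, postpartum 2 and the non-pregnant library. Levels below are UMIs per 1000000 non-hormone UMIs (CPM). A count of 0, read as up to 3 counts, allows 16.6 CPM in pregnant 1, 939 in pregnant 2, 87.0 in postpartum 1, 20.9 in postpartum 2 and 6.53 in the non-pregnant library. These limits and all intervals on counts cover counting error only. The 6869 UMIs in all beta cells of pregnant 2 left most genes without a count: 479 of 6673 non-hormone genes had a UMI there, against 6587 in pregnant 1. The UMIs of a gene in pregnant 2 also sat in few cells, as the 26 of the convertase Pcsk2 in 2 cells and the 64 of the granin Chgb in 7 cells. Whether its table was made just as that of pregnant 1 was not tested, so its recovered UMIs may not count the same thing.

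**Figure D1:**
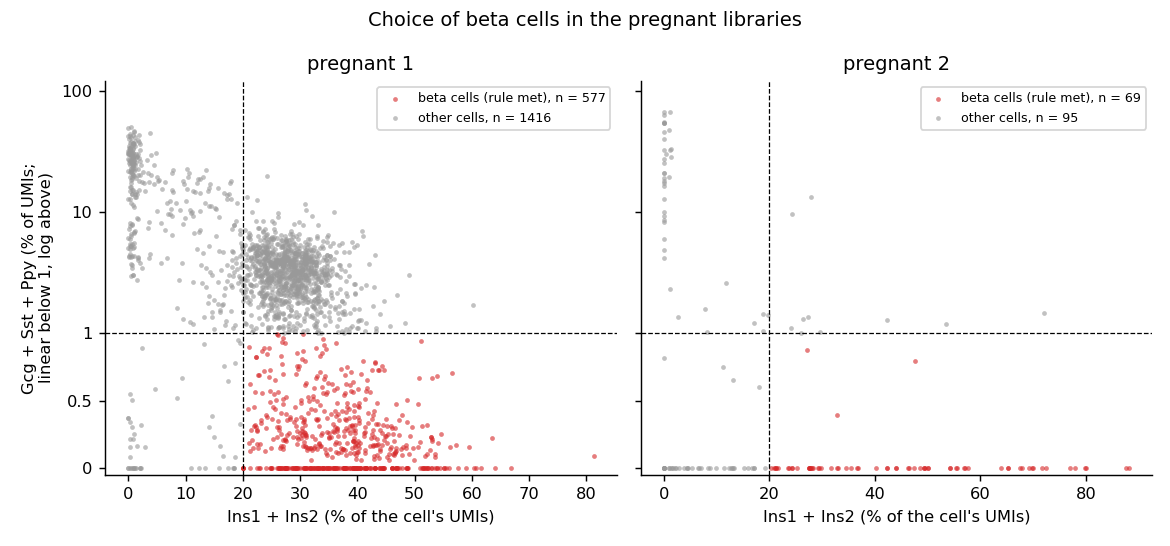
Each point is a cell of pregnant 1 (left) or pregnant 2 (right), placed by the percent of its UMIs on Ins1 and Ins2 (x axis) and on Gcg, Sst and Ppy (y axis, linear below 1 and logarithmic above). Red cells met the rule, whose limits are the dashed lines, and in pregnant 1 1042 insulin-rich barcodes lie above the upper limit, 908 of them under 5%.

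The limit on other hormones decided most of the choice in pregnant 1. There 1619 cells reached 20% insulin, but 1042 of them carried 1% or more of other hormones, with a median of 3.17% beside 28.2% insulin, and 209 of the 1042 lay under 2%. The cells just inside the limits had insulin at 20.05%, 20.05% and 20.07%, or other hormones at 0.996%, 0.993% and 0.989%. Those just outside had insulin at 19.5%, 19.5% and 19.2%, or other hormones at 1.01%, 1.01% and 1.01%. In pregnant 2 the limit worked differently, since 48 of its 69 beta cells had under 100 UMIs, where 1 UMI of another hormone is already over 1%. There 66 of the 69 had no UMI of another hormone, against 194 of 577 in pregnant 1.

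The insulin genes and Iapp, the gene of islet amyloid polypeptide, held the most UMIs of these cells. The RefSeq promoters of Ins1 and Iapp (GRCm38.p6, 250 bases before the gene start) are shown because their products fill the cells, with the homeodomain core TAAT in capitals on either strand (as ATTA on the reverse one).
Ins1, chr19:52264047-52264296, plus strand: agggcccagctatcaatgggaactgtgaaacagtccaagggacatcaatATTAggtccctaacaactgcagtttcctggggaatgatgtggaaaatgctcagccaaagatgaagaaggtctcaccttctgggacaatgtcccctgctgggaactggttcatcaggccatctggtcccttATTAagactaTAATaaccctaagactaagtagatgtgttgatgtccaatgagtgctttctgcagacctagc
Iapp, chr6:142298175-142298424, plus strand: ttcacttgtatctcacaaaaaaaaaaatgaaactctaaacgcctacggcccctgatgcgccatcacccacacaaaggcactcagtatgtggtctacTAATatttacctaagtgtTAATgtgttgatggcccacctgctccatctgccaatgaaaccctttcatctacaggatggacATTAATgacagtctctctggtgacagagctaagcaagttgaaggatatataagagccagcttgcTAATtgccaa
The Ins1 window held 3 copies of TAAT, 1 forward and 2 reverse, and the Iapp window held 5, of which 4 were forward and a forward and a reverse copy overlapped. Among all 32851 promoter windows of that length 54.9% held at least 1 copy and 17.3% held 3 or more. A match describes letters and shows no binding.

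Ins2 took 22.1% and Ins1 15.3% of the UMIs of pregnant 1 beta cells, and Iapp took 4.72%. These insulin values follow from the rule and are given as a description. In pregnant 2 the shares were 26.5% for Ins2, 17.1% for Ins1 and 3.13% for Iapp, which was seen in 39.1% of its 69 cells, against all 577 cells of pregnant 1. The insulin share of a cell ran from 20% to 81.2% in pregnant 1, with a median of 36.6%, and its median was 44.0% in pregnant 2. It was 47.3% and 58.0% in postpartum 1 and postpartum 2, and 28.2% in the non-pregnant library.

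The mix of the insulin genes, which the rule did not fix, leaned more to Ins1 in both pregnant libraries. Ins1 made up 40.8% and 39.1% of the insulin UMIs in pregnant 1 and pregnant 2, against 32.8% and 31.1% in postpartum 1 and postpartum 2 and 35.1% in the non-pregnant library. The pregnant libraries thus lay above the other 3 with no overlap. The recovered UMIs of pregnant 2 may not count the same thing, however, and the non-pregnant file was made differently. No test is given, since the insulin genes chose the cells. Within pregnant 1 the share differed from cell to cell by more than binomial sampling gives. It had a 5th percentile of 28.3%, a median of 40.2% and a 95th percentile of 52.7%, and its index of dispersion (observed over binomial variance, so 1 means sampling noise alone) was 10.6 at a median of 208 insulin UMIs per cell. Given all UMIs of the cell the index was 14.8 for Ins1, 21.8 for Ins2 and 5.39 for Iapp. Across the 577 cells, which share 1 library, Ins1 and Ins2 shares went together (Spearman rho 0.446) and the Iapp and insulin shares went in opposite directions (rho -0.324), where shares of 1 total are bound to trade off in part. The insulin share went little with depth (rho 0.115) and with Rn45s, the ribosomal RNA feature (rho -0.167).

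Traces of other hormones remained within the limit. In pregnant 1 beta cells Gcg held 0.163% of UMIs and was seen in 55.8% of cells, Ppy held 0.0562% and Sst 0.0250%. Pyy, the peptide YY gene, was not part of the rule, held 0.159% and reached 11.1% in 1 cell. For comparison, alpha cells of pregnant 1, taken as cells with at least 20% Gcg and under 5% insulin (n = 85, median 484 UMIs), held 0.592% Ins2, with a UMI in 85.9% of them, 0.294% Ins1 and 0.337% Iapp. Rn45s held 3.39% of the UMIs of pregnant 1 beta cells, and 0 to 32.3% in single cells.

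The label of these cells was checked against markers that the rule did not use. Mafa, a factor that drives insulin transcription in mature beta cells, had 228 UMIs in pregnant 1 beta cells (1264 CPM, 95% Poisson interval 1105 to 1439), with a UMI in 24.8% of cells, against 2 UMIs in the 85 alpha cells, a ratio of 13.5 (3.68 to 112). Prlr, the prolactin receptor, had 374 UMIs (2073 CPM, 1869 to 2295) in 36.7% of cells, against 2 in alpha cells, a ratio of 22.1 (6.07 to 183). G6pc2, the glucose-6-phosphatase of islets, had 432 UMIs against 1 (ratio 51.0, 9.10 to 2020.0). Ucn3, urocortin 3, a peptide that mature beta cells release, had 343 UMIs against 0 and was at least 13.5-fold higher in beta cells. In pregnant 2 Mafa had 2 UMIs, Prlr 6, Ucn3 28, in 2 cells, and G6pc2 0 in its 69 cells. These genes were thus present in the beta cells of pregnant 1, well above the alpha cells of the same library, and were too sparse in pregnant 2 to check its cells beyond insulin and Iapp.

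Markers of most other cell types were low. In pregnant 1 beta cells the lists summed to 11.1 CPM for acinar (2 of 10 measured genes seen), 49.9 for endothelial (4 of 6), 5.54 for mesenchymal (1 of 1) and 238 CPM for macrophage cells (4 of 6), of which C1qa, a complement gene, held 172 CPM. Schwann, lymphoid and blood cell markers were not analysed here. The ductal list summed to 2268 CPM, led by Spp1 at 1087 and the keratin Krt7 at 743 CPM. Scrublet, a doublet caller, marked 2 cells of pregnant 1 and none of the beta cells, a number too small to show that doublets are absent.

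Beta cells were then set beside the other barcodes of pregnant 1 over the 287 non-hormone genes with at least 100 UMIs in them. All values come from 1 library, so they carry counting intervals and no test. Since the genes had to reach 100 UMIs in the beta cells, those low there could not enter, and the counts of higher and lower genes below cannot be weighed against each other. Against alpha cells 64 genes were over 2-fold higher and 29 over 2-fold lower in beta cells. Beside the markers above, Chgb, a granin, stood at 4651 against 517 CPM (ratio 9.0, 5.01 to 18.1), and Scg2, another granule protein, at 8028 against 1738 CPM (4.62, 3.33 to 6.59). Pcsk1, the convertase that opens proinsulin, had 192 UMIs against 0 (at least 7.55-fold higher), and Bace2, a membrane protease, had 297 against 0 (at least 11.7-fold higher). Ttr, transthyretin, which alpha cells express strongly, stood at 565.5 CPM in beta cells against 24570 CPM (ratio 0.0230, 0.0184 to 0.0285).

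The 1042 insulin-rich barcodes over the other-hormone limit had levels of Mafa, Ucn3 and G6pc2 close to those of beta cells, while Malat1, Meg3, Prlr and Ccnd2 were over 2-fold lower in them. Their median depth was 526 UMIs. Of the 287 genes 227 lay within 1.5-fold between the groups, among them Mafa (1264 CPM in beta cells against 1212, ratio 1.04, 0.880 to 1.23), Ucn3 (0.949, 0.828 to 1.08) and G6pc2 (1.1, 0.970 to 1.24). The genes over 2-fold higher in beta cells numbered 13. Malat1, a nuclear noncoding RNA, stood at 5893 against 1510 CPM (3.90, 3.49 to 4.36). Meg3, a noncoding RNA of the imprinted Dlk1 region, stood at 2988 against 1408 CPM (2.12, 1.87 to 2.42). Prlr stood at 2073 against 866 CPM (2.39, 2.04 to 2.81), and Ccnd2, cyclin D2, which beta cells use to divide, at 2622 against 1089 CPM (2.41, 2.09 to 2.78). Lbh, a transcriptional cofactor, had a ratio of 3.05 (2.20 to 4.28). Ttr was the 1 gene over 2-fold lower (0.217, 0.175 to 0.267). These genes were named after their values were seen.

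**Figure D2:**
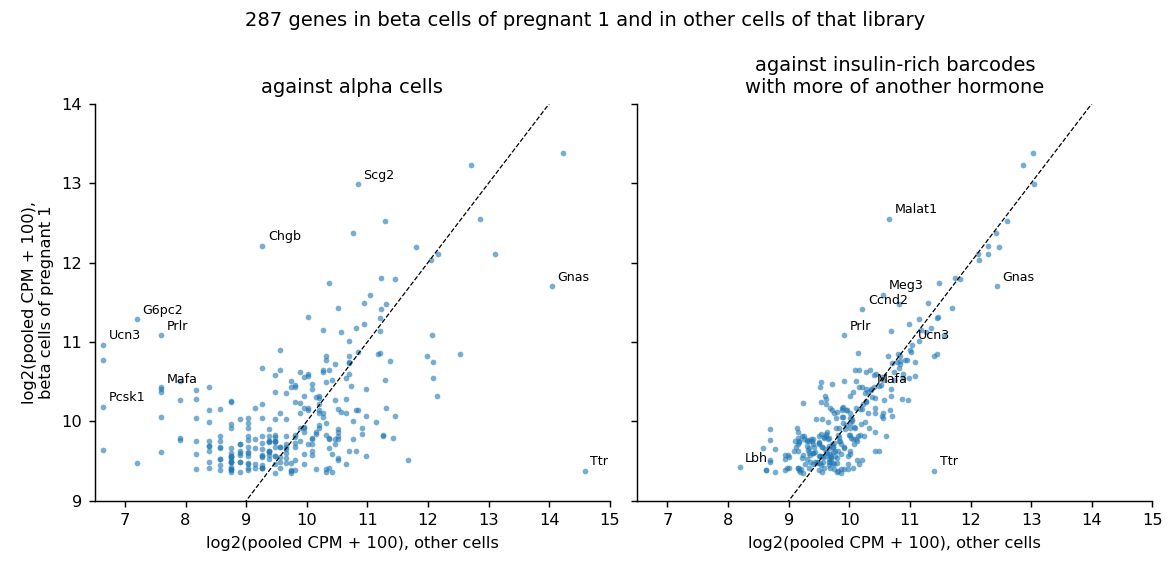
Each point is 1 of 287 genes, with its pooled level in the 577 beta cells of pregnant 1 on the y axis and in other cells of that library on the x axis, as log2(CPM + 100), and the dashed line marks equal levels. Against 85 alpha cells (left) Mafa, Prlr, G6pc2 and Ucn3 lie far above the line, while against 1042 insulin-rich barcodes with more of other hormones (right) most genes hug the line and Malat1, Meg3, Ccnd2 and Prlr lie above it.

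Outside the hormones, transcripts of the secretory granule came first in pregnant 1. inDrop counts the tagged end of a molecule, so UMIs were not divided by transcript length. Pcsk2, the convertase that completes insulin, led with 1900 UMIs (10534 CPM) in 85.8% of cells, followed by Chga, chromogranin A (1713 UMIs, 9497 CPM, 80.8% of cells) and Scg2 (1448 UMIs, 8028 CPM, 75.4%). All 16 genes of the granule list had at least 1 UMI, which says little, since 6587 of 6673 non-hormone genes had. The 20 leading genes held 9.42% of non-hormone UMIs, and 14 genes were seen in at least 50% of cells. Beside granule genes they included the metallothioneins Mt2 (5782 CPM) and Mt1 (5211 CPM), which bind zinc, the ferritin light chain Ftl1 (4602 CPM), the elongation factor Eef1a1 (4319 CPM) and the chaperone Hspa5 (3326 CPM). Others were Malat1 at 5893, Chgb at 4651, Ubb at 4297, Rpl41 at 4075, Tceal9 at 3493, H2-K1 at 3448, Gnas at 3232, Meg3 at 2988, Ptprn at 2772, Psap at 2661 and Ccnd2 at 2622 CPM. In pregnant 2, 14 of these 20 genes had a UMI, and of the 100 leading genes 52 had.

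Of the transcription factors of beta cells all 19 measured had a UMI in pregnant 1, as had 6587 of 6673 non-hormone genes. Mafa led at 1264 CPM, followed by Tshz1, a zinc finger protein, at 1098 CPM. Insm1, a transcriptional repressor made in endocrine cells, followed at 1031 CPM. Isl1, a factor of all islet endocrine cells, had 105 UMIs. Pdx1, which activates insulin, had 65 UMIs and Nkx6-1 had 26. Among genes of glucose sensing and maturity G6pc2 stood at 2395, Ucn3 at 1902, Glul, glutamine synthetase, at 1508 and Syt13, a synaptotagmin, at 1403 CPM, and Slc2a2, the glucose transporter GLUT2, had 52 UMIs. Of folding factors Hspa5 led, followed by the lectin chaperone Calr at 1957, the disulfide isomerase P4hb at 1525 and Hsp90b1 at 1469 CPM.

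Lactogen response genes had an uneven pattern in pregnant 1. All 26 measured had at least 1 UMI, as had 6587 of 6673 non-hormone genes. Ccnd2 (2622 CPM, 46.1% of cells) and Prlr (2073 CPM, 36.7%) led, followed by Igf1r, a receptor of insulin-like growth factor, at 1286 CPM and Ddc, which decarboxylates the serotonin precursor, at 1114 CPM. Tph1, the enzyme that starts serotonin synthesis, had a single UMI in 577 cells, a share of 0.173% of cells. In pregnant 2 Tph1 had 6 UMIs, all in 1 of 69 cells. Cish and Socs3, which STAT proteins induce and which damp cytokine receptors, had 3 UMIs each in pregnant 1. Of the cell cycle list Pcna and Mcm6 were analysed here, with 35 and 1 UMIs, and dividing cells were not counted.

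Genes of energy and protein synthesis were seen at moderate levels in pregnant 1. All 57 measured nuclear genes of the respiratory chain had a UMI, led by Cox8a at 1652 and Atp5g1 at 904 CPM. So had all 12 of glycolysis, led by Aldoa, an aldolase, at 759.5 CPM. Of all non-hormone genes 6587 of 6673 had a UMI. The 65 ribosomal protein genes summed to 32100 CPM, led by Rpl41 at 4075 and Rpl13a at 1746 CPM. Class I antigen presentation was represented by H2-K1 at 3448, its light chain B2m at 2129 and H2-D1 at 1369 CPM. Syt7, a calcium sensor of granule release, led the exocytosis list at 1109 CPM, and Insig1, which restrains sterol synthesis, led the cholesterol list at 344 CPM.

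Spread between beta cells was measured in pregnant 1 alone. For each of the 287 genes with at least 100 UMIs the index of dispersion compared the variance of UMIs over cells with that of sampling at each cell's depth. Its median was 1.40, and 112 genes lay over 1.5 and 33 over 2, as a description, since cells of 1 library are not replicates. Spp1, osteopontin, a secreted phosphoprotein, stood apart with an index of 10.8. It had UMIs in 64 cells (11.1%), up to 32 in 1 cell, and 10 cells held 59.7% of its UMIs.

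Below Spp1 the next 11 genes ran from 4.32 to 2.80. Atp6v1b2, a subunit of the proton pump that acidifies granules, had 4.32 and Capns1, the small calpain subunit, 3.96. Malat1 had 3.49, Lbh 3.40, the glutathione transferase Gstm1 3.28, the actin-binding protein Tagln2 3.23, parathymosin Ptms 3.08 and Tmem59 3.03. Mt2 had 2.88, Insm1 2.84 and the saposin precursor Psap 2.80. No pair of these genes went together closely from cell to cell: of the 66 pairs among the 12 genes none had a correlation of residuals over 0.3, and the highest was 0.119.

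The index was partly shared with another library. In postpartum 2, the library of most similar depth, 154 of the 287 genes also had at least 100 UMIs in beta cells. Of these 69 lay over 1.5 in pregnant 1 and 88 in postpartum 2, with 51 in both, which is 73.9% and 58.0% of each list, and the index ranked the genes alike in part (Spearman rho 0.517 across genes, which are not independent). Spp1 had 2 UMIs in postpartum 2. With cells thinned to 300 UMIs (529 cells, 48 left out) 14 of 61 genes with enough UMIs lay over 1.5. Counted whatever their thinned UMIs, Spp1 then had an index of 3.97, and Gstm1 and Psap had 1.48 and 1.45, under the threshold that the other 9 of the 12 named genes still passed. With insulin of at least 30% 69 of 173 genes lay over 1.5.

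**Figure D3:**
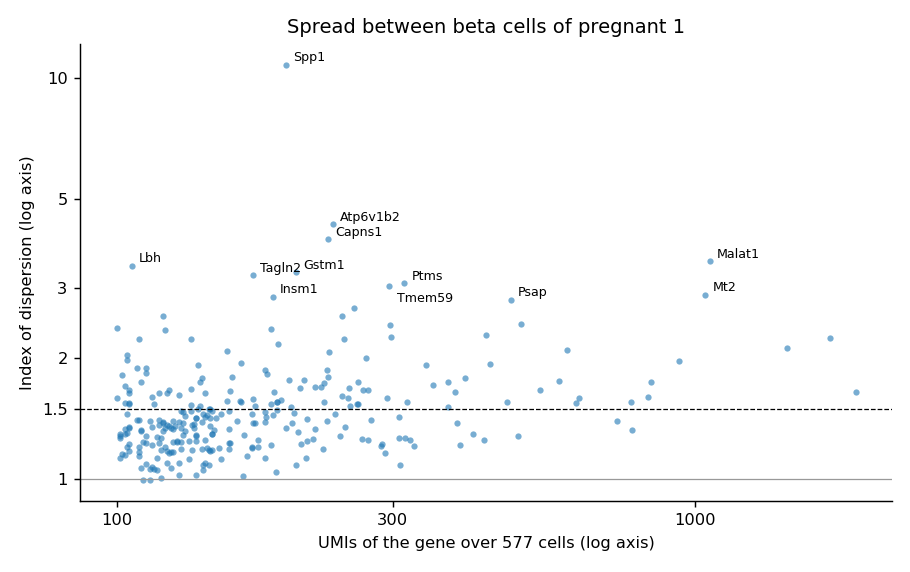
Each point is a gene with at least 100 UMIs in the 577 beta cells of pregnant 1, placed by its UMIs (x axis, log) and its index of dispersion (y axis, log). The grey line at 1 is sampling noise and the dashed line at 1.5 the threshold passed by 112 of 287 genes. Spp1 lies alone at 10.8.

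Pregnant and postpartum beta cells were compared first, since these 4 files share unit and features. Levels in this and the next comparison are means over cells of CPM, which weight cells equally. In pregnant 1 immediate early genes such as Fos and Jun, the prolactin receptor and several targets of its signalling were lower than in both postpartum libraries, and B2m, metallothioneins, Ftl1 and Spp1 were higher. With all 4 libraries limma, a linear model with a variance trend over genes, called 1 of 1963 genes at a Benjamini-Hochberg adjusted p under 0.05 (0.0509% of genes), with 33 at an unadjusted p under 0.05. edgeR called none of 4892 (28 unadjusted) and DESeq2 called 1 of 6662 (0.015%). The limma error of every gene in this fit came wholly from the trend over genes, not from the gene's own spread between libraries. The limma call was Iapp, at -0.30 ± 0.07 (SE) on the log2 scale (limma adjusted p = 0.0353). It held 4.72% and 3.13% of UMIs in the pregnant libraries against 7.55% and 2.67% in the postpartum ones, so the groups overlap by share, and the sign turned without postpartum 1 (0.24).

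Pregnant 2 decided that count. Its few UMIs put Rock1, a kinase of the cytoskeleton, at 14493 CPM from 1 UMI, in a cell with few non-hormone UMIs, against 195 CPM in pregnant 1, 153 in postpartum 1 and 174 in postpartum 2. The 8 genes with the largest positive differences, among them Rspo4, Idh1, Lurap1l, Rock1, Eif1a, Zmiz1 and Cirbp, were led by such values, as Rspo4, a WNT agonist, at 435 and 5535 against 68.6 and 64.8 CPM. The 8 with the largest negative ones were Ubb, Jun, Hspa5, Fos, Fosb, Meg3, Enpp2 and Fmo1. None of the 16 passed (limma adjusted p = 0.296 for Ubb and 0.809 for each of the others). None of the last 8 had a UMI in pregnant 2, whose limit of 939 CPM is above the postpartum level of some of them. The median difference of all genes was -0.74. Without pregnant 2 it was -0.00, and limma called 47 of 2387 genes (1.97%), 23 higher (0.964%) and 24 lower (1.01%) in pregnant 1. Without pregnant 1, which leaves pregnant 2 alone against postpartum, it called 1621 genes.

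Those 47 calls set 1 pregnant library against 2 postpartum ones, with 1 residual degree of freedom and an error taken wholly from the trend over genes. The p-values therefore say nothing of the spread between pregnant libraries. edgeR without pregnant 2 called 77 of 5874 genes (1.31%), 33 higher (0.562%) and 44 lower (0.749%), with 38 shared, which is 80.9% of the limma and 49.4% of the edgeR list, all in the same direction. The genes named from here on were chosen after these values were seen. Each log2 difference is of log2(mean CPM + 100), pregnant 1 minus postpartum, which understates changes of low genes.

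**Figure D4:**
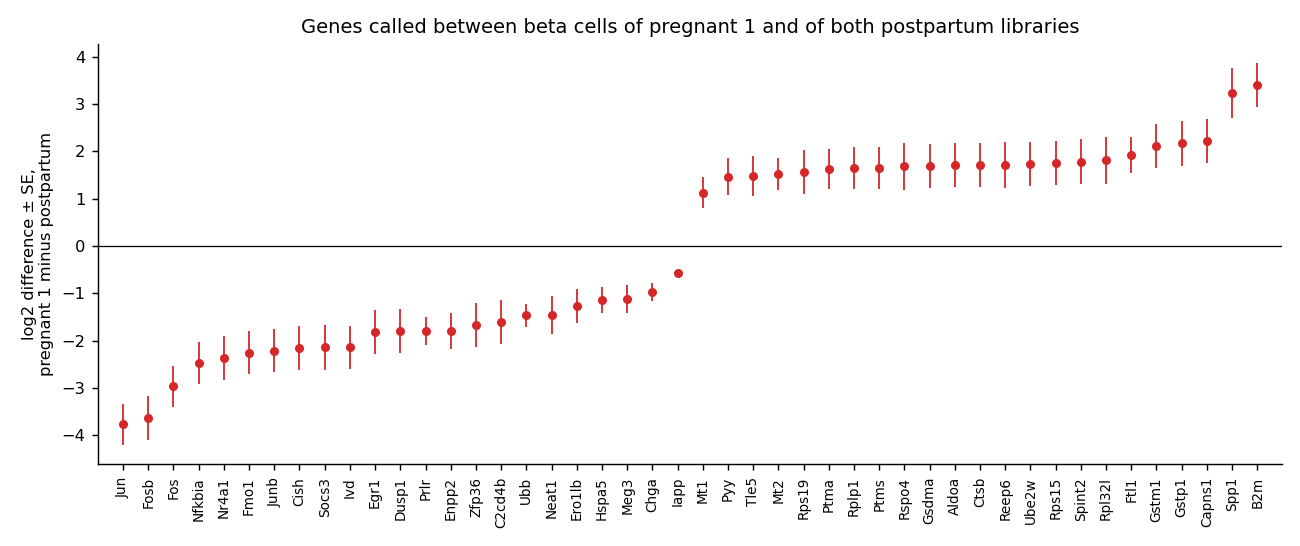
Log2 difference ± SE (limma, from the trend over genes) of 46 of the 47 genes called between beta cells of pregnant 1 (n = 1 library) and postpartum (n = 2 libraries), sorted by difference. Jun, Fosb and Fos are the lowest and B2m and Spp1 the highest.

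Immediate early genes were the largest group among the lower ones. Of 28 measured members of the immediate early and dissociation stress list 10 were called lower and none higher in pregnant 1, where 1.01% of all genes were called lower, and 21 members passed the filter on low values, which a member can pass through postpartum alone. The summed level of the list, from pooled UMIs as for all list sums here, was 10239.8 CPM in pregnant 1 and 6573 in pregnant 2, against 30714 in postpartum 1 and 33316 in postpartum 2, and 7180.4 CPM in the non-pregnant library. Jun, a subunit of the AP-1 transcription factor, stood at 71.3 CPM in pregnant 1 and 0 in pregnant 2, against 2261 CPM in postpartum 1 and 2204 CPM in postpartum 2. Its difference was -3.77 ± 0.44 (limma adjusted p = 1.74e-14 without pregnant 2). Fos, its partner, stood at 161 and 0 CPM against 1946 and 1910 CPM (-2.96 ± 0.44, limma adjusted p = 6.37e-09). Fosb had no UMI in either pregnant library, against 39 and 225 UMIs in the postpartum ones, so that by pooled UMIs it was at least 68.0-fold and 94.1-fold lower in pregnant 1 than in postpartum 1 and postpartum 2. These 3 genes were named for being called lower, so the place of pregnant 1 below both postpartum libraries in them adds no support.

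Junb, Egr1, Nr4a1, Dusp1, Zfp36 and Ubb were also among the 10. Junb, another AP-1 subunit, stood at 139 and 0 CPM against 1327 and 749.6 CPM. Nr4a1, an orphan nuclear receptor, stood at 40.2 CPM in pregnant 1 and, from 1 UMI, at 499.8 CPM in pregnant 2, against 562 and 692 CPM. Ubb, a polyubiquitin gene, stood at 4080.1 CPM in pregnant 1 and 0 in pregnant 2, against 10735 and 12159 CPM (-1.46 ± 0.24, limma adjusted p = 7.95e-07). Nfkbia, which restrains NF-kappa-B and is no member of the list, was called too, at 207 CPM in pregnant 1 and, from 1 UMI, at 1208 CPM in pregnant 2, against 1282 and 1975 CPM. Genes of this list are known to respond within minutes to many stimuli, tissue dissociation among them.

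Promoters of 3 of these genes that hold TGACG, the core of the cyclic AMP response element, are shown. The motif is in capitals on either strand (CGTCA on the reverse one), in the 250 bases before the RefSeq start in GRCm38.p6. Junb, with 1 copy, and Jun, with 0, were also searched and are not shown.
Fos, chr12:85473640-85473889, plus strand: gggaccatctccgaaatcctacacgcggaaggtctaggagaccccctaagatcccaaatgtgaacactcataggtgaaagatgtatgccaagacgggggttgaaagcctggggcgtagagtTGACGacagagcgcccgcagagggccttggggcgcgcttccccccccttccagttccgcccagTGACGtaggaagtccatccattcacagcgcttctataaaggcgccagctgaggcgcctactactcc
Fosb, chr7:19310046-19310295, minus strand: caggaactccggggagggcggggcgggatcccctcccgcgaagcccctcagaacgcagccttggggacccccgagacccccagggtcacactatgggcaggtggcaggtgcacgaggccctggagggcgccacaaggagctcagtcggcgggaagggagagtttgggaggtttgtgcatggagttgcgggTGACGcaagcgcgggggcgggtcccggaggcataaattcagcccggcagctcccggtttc
Nr4a1, chr15:101266596-101266845, plus strand: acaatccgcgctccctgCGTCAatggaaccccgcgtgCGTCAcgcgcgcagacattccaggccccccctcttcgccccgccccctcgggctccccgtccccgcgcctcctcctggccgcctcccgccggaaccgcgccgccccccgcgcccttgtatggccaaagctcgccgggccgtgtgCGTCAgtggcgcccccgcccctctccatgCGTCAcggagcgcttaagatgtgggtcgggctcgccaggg
Fos held 2 forward copies, the nearer 62 bases before the start, Fosb 1 forward copy 56 bases before it and Nr4a1 4 reverse copies. Of the 30 genes of the list 24 were in the promoter table and 14 of these held the motif at any of their starts, Jun not among them, where 19.8% of all 27025 genes of the table did so. This describes letters, not regulation.

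Prlr and 5 other genes of the lactogen response were lower as well. Of 26 measured members 17 passed the filter, some through postpartum alone, 6 were called lower and none higher, where 1.01% of all genes were called lower and 0.964% higher. Prlr stood at 1979.6 CPM in pregnant 1 and, from 6 UMIs, at 2448 CPM in pregnant 2, against 6852 in postpartum 1 and 7380 in postpartum 2. Both pregnant libraries lay below both postpartum ones, but the UMIs of pregnant 2 sat in 2 cells (689 to 4087 CPM by pooled UMIs). The share of all genes that separated so is not given, so this order adds no support. The difference of Prlr was -1.79 ± 0.30 without pregnant 2 and -1.65 ± 0.97 with it (limma adjusted p = 0.809 with it). In cells thinned to 300 UMIs Prlr was seen in 21.6% of 529 cells of pregnant 1, against 50% of 128 and 42.6% of 606 postpartum cells, and unthinned in 36.7% against 43.3% and 66.6%.

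The other called members were Cish, Socs3, Ivd, Fmo1 and Enpp2. Cish had 3 UMIs in pregnant 1 against 13 in postpartum 1 (ratio 0.0441, counting interval 0.00806 to 0.161) and 60 in postpartum 2 (0.0398, 0.00799 to 0.122), and in pregnant 2 it had 2 UMIs in 1 cell. By mean level Cish stood at 24.3 CPM in pregnant 1 and 878 in pregnant 2, against 355 and 574 CPM, so that the pregnant libraries lay on both sides. Socs3 had 3 UMIs against 11 (0.0521, 0.00934 to 0.197) and 55 (0.0435, 0.00870 to 0.134). Ivd, which works in the breakdown of leucine, stood at 132 and 0 CPM against 746 and 1134 CPM. Fmo1, a flavin monooxygenase, stood at 169 and 0 CPM against 748 and 1824 CPM. Enpp2, the enzyme autotaxin, stood at 715 and 0 CPM against 2454 and 3016 CPM. Since these 5 were named for being called lower, the place of pregnant 1 below both postpartum libraries in them adds no support. Tph1 had 1 UMI in pregnant 1 and 6 in pregnant 2, against 2 and 31. By pooled UMIs Tph1 in pregnant 1 had a ratio of 0.0956 (0.00162 to 1.84) to postpartum 1, an interval that includes equal levels. To postpartum 2 it had a ratio of 0.0257 (0.000631 to 0.154). Its mean level was 12 CPM in pregnant 1 and, from 1 cell, 1581 in pregnant 2, against 61.8 and 171 CPM, again on both sides, and without pregnant 2 it was too low for the limma filter. Ccnd2, at 2840.0 CPM in pregnant 1 against 4178 and 3609 CPM, did not pass (-0.44 ± 0.33, limma adjusted p = 0.836).

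**Figure D5:**
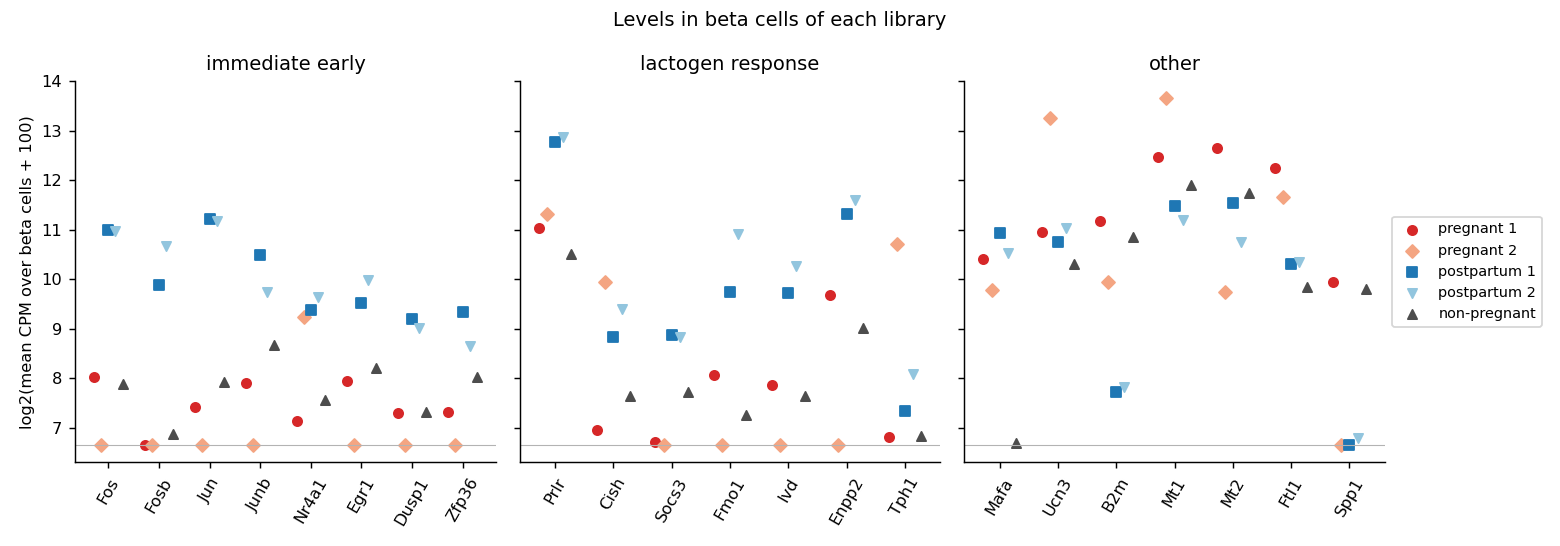
Mean level over beta cells of each library, as log2(mean CPM + 100), for immediate early genes, lactogen response genes and other genes, and the grey line marks a level of 0. The genes were picked after their values were seen, nearly all among those called, so their positions follow from the choice. Pregnant 1 (red circles) lies under both postpartum libraries (blue) in the immediate early and lactogen response genes shown. It lies over them in B2m, Mt1, Mt2, Ftl1 and Spp1. Of 21 tested immediate early list members 19 differences without pregnant 2 were below 0 and 2 above, and of 17 lactogen response members 13 and 4. Tph1 rests on 1 UMI in pregnant 1 and 2 in postpartum 1. Pregnant 2 (orange diamonds) rests on few UMIs.

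Genes of beta cell identity went both ways without pregnant 2. Of 19 measured transcription factors 11 passed the filter, with 6 differences above 0 and 5 below. Of 12 measured beta cell markers 9 passed it, with 2 above 0 and 7 below. Mafa stood at 1258 CPM in pregnant 1 and 783 in pregnant 2. Postpartum it stood at 1844 CPM in postpartum 1 and 1365 in postpartum 2 (-0.31 ± 0.40 without pregnant 2). Of 16 measured granule genes Chga and Iapp were called lower, beside 1.01% of all genes, with Chga at 9199.8 and 5525 CPM against 18040 and 17999 CPM (-0.96 ± 0.19, limma adjusted p = 0.000134), while Pcsk2, Scg2 and Chgb did not pass. Folding factors gave 2 lower calls of 26 measured, beside the same 1.01% of all genes, Hspa5 at 3392 and 0 against 7754 and 7344 CPM (-1.13 ± 0.28, limma adjusted p = 0.00461) and Ero1lb, which forms disulfide bonds in proinsulin. Ero1lb stood at 1244 CPM in pregnant 1 and, from 20 UMIs, at 5447 CPM in pregnant 2, against 3037 and 3221 CPM, so that the pregnant libraries lay on both sides. edgeR did not call Chga, Hspa5 or Ero1lb (edgeR adjusted p = 0.233, 0.0625 and 0.0526).

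Higher in pregnant 1 were B2m, the metallothioneins Mt1 and Mt2, Ftl1 and Spp1, among 23 genes. B2m stood at 2213 CPM in pregnant 1 and, from 2 UMIs, at 878 CPM in pregnant 2, against 111 CPM in postpartum 1 and 127 in postpartum 2 (3.40 ± 0.47, limma adjusted p = 2.10e-10). Of 12 measured antigen presentation genes only 4 passed the filter, and all 4 differences were above 0 without pregnant 2. H2-K1, a partner of B2m, stood at 3339 and 2501 against 2625 and 2297 CPM. In the non-pregnant library B2m stood at 1748 CPM. Mt2 stood at 6338 and 752 against 2854 and 1612 CPM (1.52 ± 0.34, limma adjusted p = 0.00078), so that the value of pregnant 2, from 3 UMIs, lay under both postpartum ones. Mt1 stood at 5557 CPM in pregnant 1 and, from 37 UMIs in 3 cells, at 12761 CPM in pregnant 2, against 2768 and 2225 CPM (1.13 ± 0.33 without pregnant 2). Both pregnant libraries were higher, but edgeR did not call Mt1. Ftl1 stood at 4766 CPM in pregnant 1 and, from 10 UMIs of 1 cell, at 3151 CPM in pregnant 2. Postpartum it stood at 1162 and 1202 CPM (1.92 ± 0.38 without pregnant 2), again with both pregnant libraries higher. Mt1 and Ftl1 were named for being called higher, so the place of pregnant 1 adds no support.

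The glutathione transferases Gstp1 and Gstm1, Capns1 and Ptms were higher in pregnant 1 with no UMI in pregnant 2, as Gstm1 at 1174 against 271 and 131 CPM. Spp1 had 196 UMIs in pregnant 1 and none in pregnant 2, against 0 in postpartum 1 and 2 in postpartum 2, at least 12.5-fold higher than postpartum 1 and 78.1-fold (21.3 to 649) higher than postpartum 2 by pooled UMIs. In cells thinned to 300 UMIs Spp1 was seen in 6.81% of 529 cells of pregnant 1 and in 6.93% of 274 non-pregnant cells. High Spp1 was thus not particular to pregnant 1. Spp1 is also a duct marker, and the ductal list summed to 2268 CPM of pooled UMIs in pregnant 1 and 313 in pregnant 2. It summed to 580.1 in postpartum 1, 1384 in postpartum 2 and 1940 CPM in the non-pregnant library. Spp1, Capns1, Gstm1, Ptms and Mt2 were also among the 12 genes of greatest spread between cells of pregnant 1. Of 65 measured ribosomal protein genes 4 were called higher and none lower, where 0.964% of all genes were called higher, among them Rps19 at 933 and 3451 against 175 and 344 CPM, and reads of such genes may be shared with near-identical copies.

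Other quantities differed between these libraries too, not all of them by group. The median insulin share of the beta cells, which the rule bounds, was 36.6% and 44.0% in the pregnant libraries against 47.3% and 58.0%. Rn45s held 3.39% of UMIs in pregnant 1 and 0.364% in pregnant 2, against 0.792% in postpartum 1 and 1.12% in postpartum 2. For Rn45s the pregnant libraries thus lay on both sides. By pooled UMIs macrophage markers summed to 238 CPM in pregnant 1 and 0 in pregnant 2, against 1015 and 383 CPM, and acinar markers to 11.1 and 0 against 29.0 and 313 CPM. The alpha list, which includes Gcg, a gene of the rule, summed to 4396 and 626 against 3509 and 8007 CPM, so the groups overlapped. Pyy, at 3742 and 2316 CPM, stood against 772 and 2112 CPM, and was called higher by limma (1.47 ± 0.39, adjusted p = 0.012). The part of these in the differences was not tested.

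Pregnant and non-pregnant beta cells were compared next. The file of the non-pregnant library was made differently, with another feature list and scale, and is 1 library, so pregnancy and the making of the file cannot be told apart. limma called 0 of 2124 genes (0.0%) with all libraries, with 26 at an unadjusted p under 0.05, edgeR called 0 (115 unadjusted) and DESeq2 0 (66 unadjusted). The largest differences there were those of Mafa, Rock1, Zc3h11a, Eif1a, Lurap1l, Mrpl39, Zmiz1 and Ptprn2, higher in the pregnant libraries, and of Tpt1, Cpe, Manf, Gpx4, Rpl19, Rps21, Chchd2 and Rps6, lower. Without pregnant 2 limma called 46 of 2450 genes (1.88%), 20 higher (0.816%) and 26 lower (1.06%) in pregnant 1, with an error again taken from the trend over genes in a fit that includes the postpartum libraries. Without pregnant 1 it called 1566. edgeR called 112 of 6493 (1.72%), 57 higher (0.878%) and 55 lower (0.847%), with 45 shared, which is 97.8% of the limma and 40.2% of the edgeR list. Both comparisons share the pregnant libraries, so their calls are not independent.

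Prlr and most beta cell genes did not pass the test. Prlr stood at 2003 CPM in pregnant 1 and 2448 in pregnant 2, against 1362 CPM in non-pregnant islets (0.52 ± 0.38 without pregnant 2, limma adjusted p = 0.999). G6pc2 stood at 2616 CPM in pregnant 1 against 2166, Ucn3 at 1890.0 against 1159, Ccnd2 at 2873 against 2726 and Pdx1 at 323 against 279.6 CPM. Of 15 tested genes of glucose sensing and maturity 11 differences without pregnant 2 were above 0 and 4 below. Of 21 tested members of the immediate early list 9 were above 0 and 12 below. Ubb stood at 4127 against 204 CPM (3.80 ± 0.38), while Fos stood at 162 against 136 CPM and Jun at 71.8 against 141 CPM. For Fos and Jun pregnant 1 thus lay near the non-pregnant level and the postpartum libraries far above both.

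Of 19 measured transcription factors 13 were tested without pregnant 2, with 7 differences above 0 and 6 below. Mafa had 228 UMIs in pregnant 1 against 1 in the non-pregnant library (ratio 581, 103 to 23100 by pooled UMIs). In the postpartum libraries Mafa had 66 and 207 UMIs. Zbtb20, a zinc finger repressor, stood at 56.5 CPM in pregnant 1 against 833 CPM. Of 15 tested granule genes 7 differences were above 0 and 8 below. Chgb stood at 4630.3 CPM in pregnant 1 against 2031 CPM, and Ptprn2, a granule membrane protein, at 1078 against 33.1 CPM. Cpe, carboxypeptidase E, which trims insulin, stood at 723 against 3683 CPM. Of 6 tested long noncoding RNAs 3 differences were above 0 and 3 below. Malat1 stood at 5775 against 1695 CPM, and Xist, which silences an X chromosome, at 317 against 1464 CPM. Gstp1 had no UMI in the non-pregnant library and was at least 93.5-fold higher in pregnant 1.

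Tpt1, a translation-associated protein, stood lowest, at 51.7 CPM in pregnant 1 and 0 in pregnant 2 against 4306 CPM (-4.86 ± 0.54, limma adjusted p = 8.70e-16). In postpartum 1 and postpartum 2 it had 25.1 and 13.2 CPM. Of 65 ribosomal protein genes 61 were tested, 11 were called lower, where 1.06% of all genes were, and 3 higher, where 0.816% were. Rps6 stood at 39.4 against 857 CPM and Rpl41 at 3925 against 269.8 CPM. Of 17 tested lactogen response genes 10 differences without pregnant 2 were above 0 and 7 below. Wipi1, an autophagy protein of that list, stood at 28.9 against 657 CPM, and at 0 and 30.3 CPM postpartum. Gpx4, which reduces lipid peroxides, stood at 62.6 against 980.4 CPM, and Manf, a secreted folding factor, at 702 against 2348 CPM. Of 45 genes called against postpartum and measured in the non-pregnant file, 3 were called in both comparisons without pregnant 2: Ftl1 and Gstp1, higher in both, and Ubb, lower than postpartum and higher than non-pregnant.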

How the data were processed

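Single cells of pancreatic islets from pregnant, postpartum and non-pregnant C57BL/6 mice were profiled by inDrop. The authors deposited the 4 pregnant and postpartum tables as log2(CPM + 1) per cell, and the non-pregnant table as a linear signal with each cell scaled to 1 common total. Partek 8.0, Bowtie 1.1.1 and the genome builds GRCm38 and mm10 are named, per the submitters' processing notes, and the sources used here do not give their roles or settings. Whole UMIs were recovered from each cell's smallest value, taken as 1 UMI or, in 9 cells of pregnant 2 where that left other values or the cell's total not whole, as the smallest whole number of UMIs that made them so. In every library 100% of values were then whole within 0.1. Cells are numbered in the tables, so shared barcodes could not be counted.

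Levels are CPM of UMIs outside Ins1, Ins2, Gcg, Sst, Ppy, Pyy, Iapp, Ghrl and ribosomal features. For comparisons they were averaged over the beta cells of a library and tested with limma 3.58.1 (variance trend) on log2(mean CPM + 100), keeping genes whose mean reached 100 CPM and using a Benjamini-Hochberg adjusted p under 0.05. edgeR 4.0.16 (quasi-likelihood) and DESeq2 1.42.0 were run on summed UMIs as alternatives. The tables of the log2 files and the non-pregnant file were joined by gene name: 6543 genes by symbol and 83 by synonym, with 55 unmatched. Genes that the text names were the markers, the list members, the 4 highest of each list, the 20 highest of all, the 12 of greatest spread and, per comparison, the 8 largest differences in each direction. Some genes that this rule names are not reported here. The genes named from the fits without pregnant 2 were chosen after their values were seen. The cells, lists and tests were chosen with earlier results of these data known. Scrublet (scanpy 1.11.5) marked too few cells to be relied on and removed none. Fits were tested on simulated data. Python 3.11.15, numpy 2.4.6, scipy 1.17.1, matplotlib 3.10.9 and R 4.3.3 were used, and promoters came from RefSeq.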

Additional observations from a re-analysis of the deposited data

How the results depend on the processing

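Between pregnant and postpartum beta cells 1 gene was called. Scaling to all UMIs, edgeR with TMM, insulin of at least 30%, other hormones under 0.5% and the replicate block called 0, and edgeR without TMM called 10. Leaving out 1 library at a time gave 0 to 1621 genes, the most without pregnant 1 and 47 without pregnant 2. Settings chosen after seeing the data, all without pregnant 2, gave 77 (edgeR with TMM), 81 (edgeR without TMM) and 45 (limma on pooled UMIs). The replicate block rests on library numbers alone. Deviations of same-numbered libraries correlated at 0.038, but those of the pregnant pair depend on the few UMIs of pregnant 2. The value therefore cannot tell whether same-numbered libraries share more than a number.

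Against the non-pregnant library, 0 at first, pooled UMIs gave 1 gene, cells of at least 100 UMIs 1 and edgeR without TMM 61. Leaving out 1 library gave 0 to 1566, and the added settings 112, 113 and 49. Genes more variable than 1.5 numbered 112, 69 with insulin of at least 30% and 14 with thinned cells, which also leave fewer genes to test.

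Some single genes turned in sign. Iapp went to 0.24 without postpartum 1 and ran from -0.84 upward when 1 library was left out. Against non-pregnant Iapp fell below 0 with all UMIs (-0.83), pooled UMIs (-0.63), edgeR with TMM (-1.10) and without (-0.54), DESeq2 (-1.21), at least 100 UMIs (-0.45), without pregnant 2 (-0.22, with 0.31 without pregnant 1) and under the added settings (-0.31, -0.28, -0.31). With at least 100 UMIs Rock1 stood at -0.62 and Zmiz1 at -0.35 against postpartum, and Rock1 at -0.36, Zmiz1 at -0.34 and Prlr at -0.57 against non-pregnant, where DESeq2 gave Prlr -0.046. Mrpl39 stood at -1.0 and -0.98 under added edgeR fits. The causes were not tested. Depth limits pregnant 2 above all, where a count of 0 allows 939 CPM.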
